A study of Mus musculus with 8 samples.

Results

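Fatty acids enter a fat cell, are carried through its cytoplasm and are activated to acyl-CoA by the products of a small group of genes. The 10 genes of this group described here are Cd36, Slc27a1 and Slc27a4 (uptake), Fabp3, Fabp4 and Fabp5 (binding) and Acsl1, Acsl4, Acsl5 and Acsm3 (activation). They were taken by symbol from the 16505 genes of the deposited expression table. All 10 were found, and all 10 passed the filter on low values (at least 0 log2 CPM on average over the 8 libraries, where CPM is the read count scaled to the library's own total), as did 13797 genes in all. Messenger RNA was sequenced from epididymal white adipose tissue (eWAT), an abdominal fat pad of male mice. One group held 4 wild-type (WT) C57BL/6 mice and the other held 4 C57BL/6 mice with a double knockout of Mir181, called the knockout here and DKO in the plots. Both groups had eaten a high fat diet for 12 weeks, so no lean group is part of the comparison. The labels give no age, litter or housing and do not say which Mir181 loci were deleted or whether the deletion was limited to a cell type. The p-values therefore measure the spread between these 8 samples.

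Long-chain fatty acids reach adipocytes as albumin-bound acids or by release from lipoproteins at the capillary wall. The membrane protein CD36 and the fatty acid transport proteins of the Slc27 family take them up. Inside the cell, fatty acid binding proteins (FABPs) hold the poorly soluble acids, and acyl-CoA synthetases join them to coenzyme A, which traps them for storage as triglyceride, for membrane lipids or for oxidation. FABP4 is the abundant binding protein of adipocytes and is also made by macrophages and capillary endothelium, while FABP5 is the form linked to macrophages and skin.

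The miR-181 microRNAs share 1 seed, the bases that pair with sites in target messenger RNAs. RefSeq (GRCm38.p6) lists 4 mature miR-181 5p forms, printed here with the seed (bases 2 to 8) in capitals because the sites shown next are its complement.
mmu-miR-181a-5p: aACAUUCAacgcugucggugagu
mmu-miR-181b-5p: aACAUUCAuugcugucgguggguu
mmu-miR-181c-5p: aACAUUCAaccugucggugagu
mmu-miR-181d-5p: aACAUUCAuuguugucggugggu
The 4 forms share base 1 and the seed and differ only after it. Forms a and b are each encoded on chromosomes 1 and 2, and forms c and d on chromosome 8. No row of the expression table measures a mature miR-181, so the deletion itself was not checked here.

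The complement of the seed, TGAATGT, was searched in the sense strand of each gene's 3′ UTR, the longest where several are annotated (GENCODE mouse release M21, GRCm38). It occurred in 2 of the 10 genes, Acsl1 and Acsl4, once in each. Of 12867 tested genes with such a UTR, 2479 (19.3%) held it. The sites are printed with 11 bases on each side and the match in capitals.
Acsl1, 3′ UTR bases 1461 to 1467: caacggggtttTGAATGTttgctttcagt
Acsl4, 3′ UTR bases 2520 to 2526: cattttaatttTGAATGTagttatacatt
The base after the Acsl4 match is an A and that after the Acsl1 match is not. A match is a run of letters and was not tested as a binding site. Neither gene passed the test between the groups, with a positive difference for Acsl1 and a negative one for Acsl4 (values below).

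WT libraries held 4081597 to 15410736 reads, and knockout replicates 1 to 4 held 3736881, 76838584, 36319777 and 20336161. The shallowest and the deepest library were thus both from the knockout. Knockout replicates 2, 3 and 4 were each deeper than every WT library, so genotype is partly tied to depth. The pooled totals were 3.22e+07 reads in WT and 1.37e+08 in the knockout. Read counts given below are not scaled to these totals, and only the log2 CPM values compare the groups. Ribosomal RNA made up over 1% of the reads of 3 WT libraries (replicates 1, 3 and 4) and of knockout replicate 1 alone, so genotype is partly tied to it. For each gene the knockout minus WT difference is therefore also given within the libraries above 1% (3 WT, 1 knockout) and within the others (1 WT, 3 knockout), in that order. Epididymis markers supplied 1.55% of the reads of WT replicate 2, 2.72% of knockout replicate 2 and 1.25% of knockout replicate 4, and red blood cell markers, mainly hemoglobin genes, supplied 0.407% of knockout replicate 3 and 1.20% of knockout replicate 4, against at most 0.0827% of any other library. As a check of the tissue label, all 12 adipocyte markers were read in both groups, from 0.432% to 0.776% of reads in WT and from 1.49% to 2.60% in the knockout. In the same libraries 11 of 12 adipocyte markers rose and 11 of 12 macrophage markers fell (limma adjusted p under 0.05). Of all tested genes 22.7% rose and 16.1% fell. In such bulk tissue, fewer cells of a type and less RNA per cell cannot be told apart.

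Between the groups, 2 of the 10 genes rose in the knockout (Fabp4 and Acsm3), 2 fell (Fabp5 and Acsl5) and 6 did not pass limma's test at a Benjamini-Hochberg adjusted p of 0.05. Among all tested genes 22.7% were higher and 16.1% lower, so the counts of 2 and 2 of 10 are near that background. The knockout libraries lay wholly above the WT libraries for 2 of the 10 genes (Slc27a1 and Acsm3) and wholly below for 3 (Cd36, Fabp5 and Acsl5), against 20.8% and 16.6% of all tested genes. The median difference of the 10 genes was -0.03 on the log2 scale, beside 0.18 for all tested genes. As a group, then, these genes did not shift in 1 direction: within each step of the pathway some members had positive and others negative differences.

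**Figure D1:**
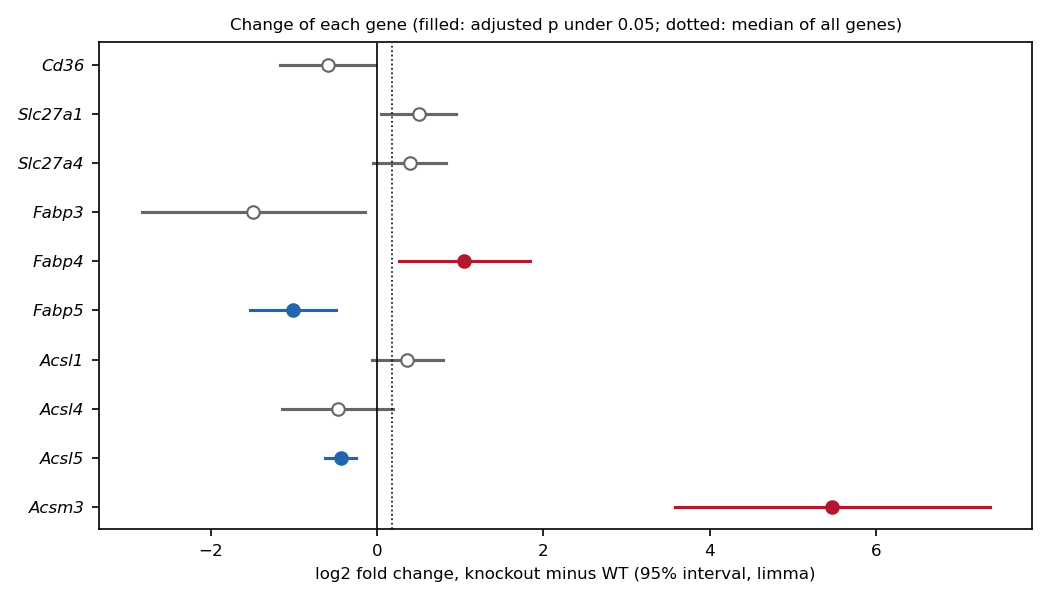
Difference of each gene between the groups (x axis, log2 fold change, knockout minus WT; points are estimates and lines 95% intervals from limma; filled points passed the test, red higher and blue lower; the dotted line is the median of all tested genes, 0.18). Acsm3 stands at 5.48 with a wide interval, Fabp4 and Fabp5 lie on opposite sides of 0, and Acsl5 has the narrowest interval.

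Part of the positive differences is shared with the average gene. Relative to the median of all tested genes, the difference of Acsl1 was 0.19, that of Slc27a4 0.22 and that of Slc27a1 0.33. When each library was centred on its median, the share of higher genes among all genes called moved from 58.6% to 46.4%, and none of the 10 genes turned its direction.

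Cd36 encodes the main fatty acid translocase of the adipocyte surface, which is also present on macrophages and capillary endothelium. Its level in WT replicates 1 to 4 was 12.61, 12.69, 12.91 and 12.78 log2 CPM, and in knockout replicates 1 to 4 it was 12.40, 11.93, 12.18 and 12.11. All 4 knockout libraries lay below all 4 WT libraries, with knockout replicate 1 nearest to them. The transcript took 0.627% to 0.772% of all reads in WT and 0.389% to 0.542% in the knockout. The difference was -0.59 ± 0.25 (limma SE; 95% interval -1.17 to -0.02) and did not pass, with a limma adjusted p of 0.0932. It passed in 2 alternatives, without a variance trend (limma adjusted p = 0.0103) and with voom on the whole reads (-0.69, limma adjusted p = 0.0190). Within the ribosomal RNA classes it was -0.36 and -0.62.

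The position of Cd36 relative to markers of the cells that carry it differed between the groups. Against the mean of the 12 adipocyte markers it stood 5.03 ± 0.34 log2 higher in WT and 2.11 ± 0.29 higher in the knockout (SD, n = 4 in each group). Against the mean of the 12 macrophage markers it stood 4.29 ± 0.19 higher in WT and 5.95 ± 0.20 higher in the knockout. In the knockout the gap to the adipocyte markers was thus smaller, and that to the macrophage markers larger, than in WT. The adipocyte marker mean itself differed by 2.33 and the macrophage marker mean by -2.26, beside -0.59 for Cd36. Cd36 and the adipocyte markers thus had differences of opposite sign. Neither shift in the gaps was tested.

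Slc27a1 and Slc27a4 encode FATP1 and FATP4, transport proteins with acyl-CoA synthetase activity; FATP1 is the form known from fat and muscle. Slc27a1 was at 7.96, 8.01, 8.01 and 8.09 log2 CPM in the WT libraries and at 8.22, 8.25, 9.17 and 8.45 in the knockout libraries. The WT values lay close together and below every knockout value, and knockout replicate 3 stood highest. The difference was 0.50 ± 0.20 (limma adjusted p = 0.0735, 95% interval 0.05 to 0.95), with 0.20 and 0.61 within the ribosomal RNA classes. Of the 19 alternatives it passed only where knockout replicate 1 was left out (0.60, limma adjusted p = 0.0421), and it was 0.29 without knockout replicate 3.

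Slc27a4 was at 5.16, 5.54, 5.21 and 5.39 log2 CPM in WT and at 5.14, 6.01, 5.79 and 5.94 in the knockout. Knockout replicate 1 was the lowest of all 8 libraries and the other 3 knockout libraries were the highest, so the groups overlapped through 1 library. The difference was 0.40 ± 0.19 (limma adjusted p = 0.133, 95% interval -0.04 to 0.83), and without knockout replicate 1 it was 0.59 with a limma adjusted p of 0.00632. Within the ribosomal RNA classes the values were -0.12 and 0.38, which differ in sign. The distance between the pair within a library, Slc27a1 minus Slc27a4, was 2.70 ± 0.15 log2 CPM in WT and 2.80 ± 0.52 in the knockout (SD, n = 4), with overlapping ranges.

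**Figure D2:**
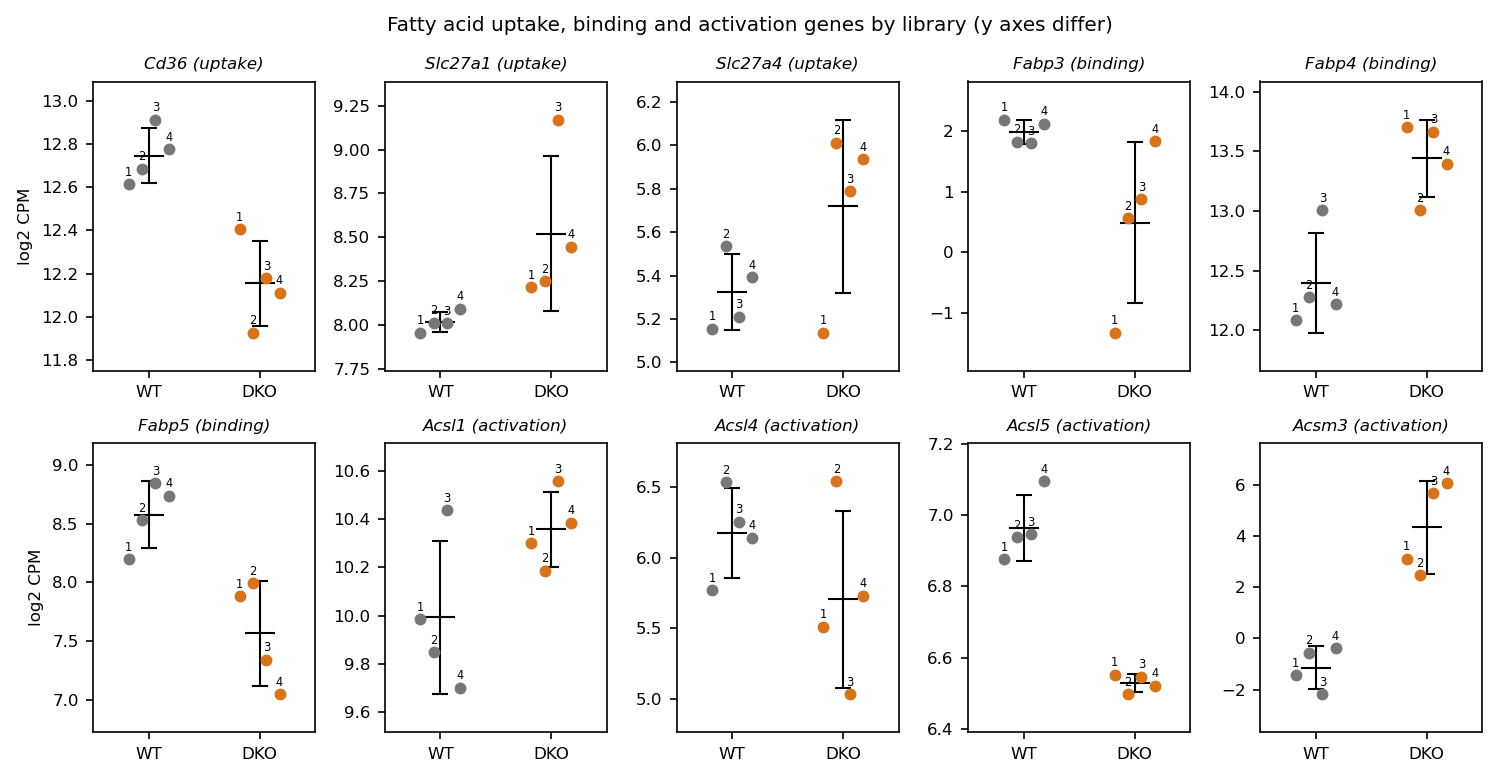
Level of each of the 10 genes in each library (y axis, log2 CPM, with a different range in every panel; x axis, group; numbers are replicates, and the bars are the mean ± SD of 4 libraries). Cd36, Fabp5 and Acsl5 show knockout libraries wholly below WT, Slc27a1 and Acsm3 wholly above, and Fabp3 shows knockout replicate 1 far below the rest.

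Fabp3, the binding protein of heart and muscle, was rare. It was at 2.18, 1.82, 1.79 and 2.12 log2 CPM in WT, from 120 reads in all, and at -1.32, 0.56, 0.87 and 1.83 in the knockout, from 252 reads. Knockout replicate 1, the shallowest library, held a single Fabp3 read, and knockout replicate 4 was as high as WT. The difference was -1.49 ± 0.59 (limma adjusted p = 0.0743, 95% interval -2.83 to -0.15) and passed in 8 of 18 alternatives, over which the limma adjusted p ran from 0.0206 to 0.152. It was -0.89 without knockout replicate 1, and -3.35 and -0.73 within the ribosomal RNA classes. Of the 75-base stretches of its transcript, 26.0% also occur in other annotated transcripts (Fabp3-ps1, Gm10570 and Zcchc17), and how reads from them were counted is not given. The 10 striated muscle markers together took 0.00112% to 0.00187% of reads in WT and 0.00274% to 0.00821% in the knockout. The brown and beige fat markers took 0.00238% to 0.00427% in WT and 0.00197% to 0.00420% in the knockout, but did not move alike. Of 6 tested, 1 rose, 2 fell and 3 did not pass, beside 22.7% higher and 16.1% lower among all tested genes. Ppargc1a rose (1.99 ± 0.45, limma adjusted p = 0.00776). Dio2 (-2.80 ± 0.54, limma adjusted p = 0.0036) and Otop1 (-3.11 ± 0.64, limma adjusted p = 0.0051) fell. Of these 10 muscle markers 3 passed the filter, and they did not move alike. The actin gene Acta1 rose from 2.76 to 4.76 log2 CPM (2.01 ± 0.35, limma adjusted p = 0.00209). Actn3 (1.30 ± 0.46, limma adjusted p = 0.05005) and Pvalb (-1.67 ± 0.64, limma adjusted p = 0.0665) did not pass. Fabp3 had a negative difference, as did Pvalb, Dio2 and Otop1, while the other tested markers of both lists had positive ones. The part of these lists in the Fabp3 values was not tested.

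Fabp4 rose in the knockout. Its level was 12.08, 12.28, 13.01 and 12.22 log2 CPM in the WT libraries and 13.70, 13.01, 13.67 and 13.40 in the knockout libraries. WT replicate 3 and knockout replicate 2 met at 13.01, differing by 0.0032, and all other knockout libraries lay above all other WT libraries. The transcript took 0.433% to 0.824% of all reads in WT and 0.822% to 1.33% in the knockout. The mean went from 12.40 ± 0.42 to 13.44 ± 0.32 (SD, n = 4), a rise of 1.05 ± 0.35 or 2.07-fold (limma adjusted p = 0.0408, 95% interval 0.26 to 1.84). This call lies near the threshold: it was lost in 11 of 19 alternatives, with a difference of 0.90 to 1.25 and a limma adjusted p of 0.0119 to 0.137 over all of them. Among these losses were the removal of WT replicate 1, 2 or 4 or of knockout replicate 1 or 3. In the ribosomal RNA classes it was 1.27 and 1.08.

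Fabp5 fell. It was at 8.20, 8.53, 8.84 and 8.74 log2 CPM in WT and at 7.88, 7.99, 7.34 and 7.05 in the knockout. Every knockout library lay below every WT library, knockout replicates 3 and 4 by the most. The mean went from 8.58 ± 0.28 to 7.56 ± 0.45 (SD, n = 4), a difference of -1.01 ± 0.23 or 2.02-fold (limma adjusted p = 0.00807, 95% interval -1.53 to -0.49). The call held in all 19 alternatives, with differences of -1.16 to -0.84 and a limma adjusted p of at most 0.0310. Within the ribosomal RNA classes the difference was -0.71 and -1.07. Of the 75-base stretches of its transcript 12.0% also occur in transcripts of Gm14328 and Gm6166, neither of which is a row of the table.

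Fabp4 and Fabp5 belong to 1 gene family and lie near each other on chromosome 3 in the GENCODE M21 annotation of GRCm38, Fabp4 on the minus strand at 10204088 to 10208576 and Fabp5 on the plus strand at 10012548 to 10016607. Their balance within each library does not depend on how the libraries are scaled. Log2 Fabp4 minus log2 Fabp5 was 3.88, 3.75, 4.17 and 3.48 in WT replicates 1 to 4 and 5.82, 5.02, 6.33 and 6.35 in knockout replicates 1 to 4. The groups did not overlap, the lowest knockout library (replicate 2) standing above the highest WT library (replicate 3). The mean was 3.82 ± 0.29 in WT and 5.88 ± 0.63 in the knockout (SD, n = 4), a difference of 2.06, or 4.17-fold (exact permutation test over all 70 regroupings, two-sided p = 0.0286, the smallest this design can give). Any 2 groups of 4 without overlap give this p, and 20.8% of all tested genes lay wholly above WT and 16.6% wholly below. Fabp4 and Fabp5 had each been called, in opposite directions, so the p of their difference is no separate result. In reads, WT libraries held 11.2 to 17.9 Fabp4 reads for each Fabp5 read and knockout libraries 32.3 to 81.7. Fabp4 supplied 91.7% to 94.7% of the reads of Fabp3, Fabp4 and Fabp5 together in WT and 97.0% to 98.8% in the knockout, and Fabp5 nearly all of the rest. By ribosomal RNA class it was 1.98 and 2.15.

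Most markers of adipocytes rose and most markers of macrophages fell in the same libraries. The mean of the 12 macrophage markers, among them the surface receptor gene Adgre1 (-2.90), the complement gene C1qb (-1.91) and the lipid receptor gene Trem2 (-3.65), was 8.46 ± 0.08 log2 CPM in WT and 6.21 ± 0.23 in the knockout (SD, n = 4). All but Mertk fell, no marker was without reads, and the list took 0.804% to 0.930% of reads in WT and 0.163% to 0.220% in the knockout. Fabp5 stood 0.11 ± 0.33 above that mean in WT and 1.36 ± 0.30 above it in the knockout. The mean of the 12 adipocyte markers, among them the hormone gene Retn (4.07), the receptor gene Adrb3 (4.21) and the lipase gene Pnpla2 (2.02), was 7.72 ± 0.42 in WT and 10.04 ± 0.31 in the knockout. All but Lep rose. Fabp4 stood 4.68 ± 0.18 above that mean in WT and 3.40 ± 0.21 in the knockout. The differences of both binding protein genes were thus smaller in size than that of the average marker of the linked cell type, a contrast that was not tested. Endothelial markers, of cells that also carry Fabp4 and Cd36, rose in 10 of 10 cases, beside 22.7% of all tested genes. These markers took 0.0494% to 0.0647% of reads in WT and 0.101% to 0.137% in the knockout. The part of these cell types in the Fabp4, Fabp5 and Cd36 values was not tested.

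**Figure D3:**
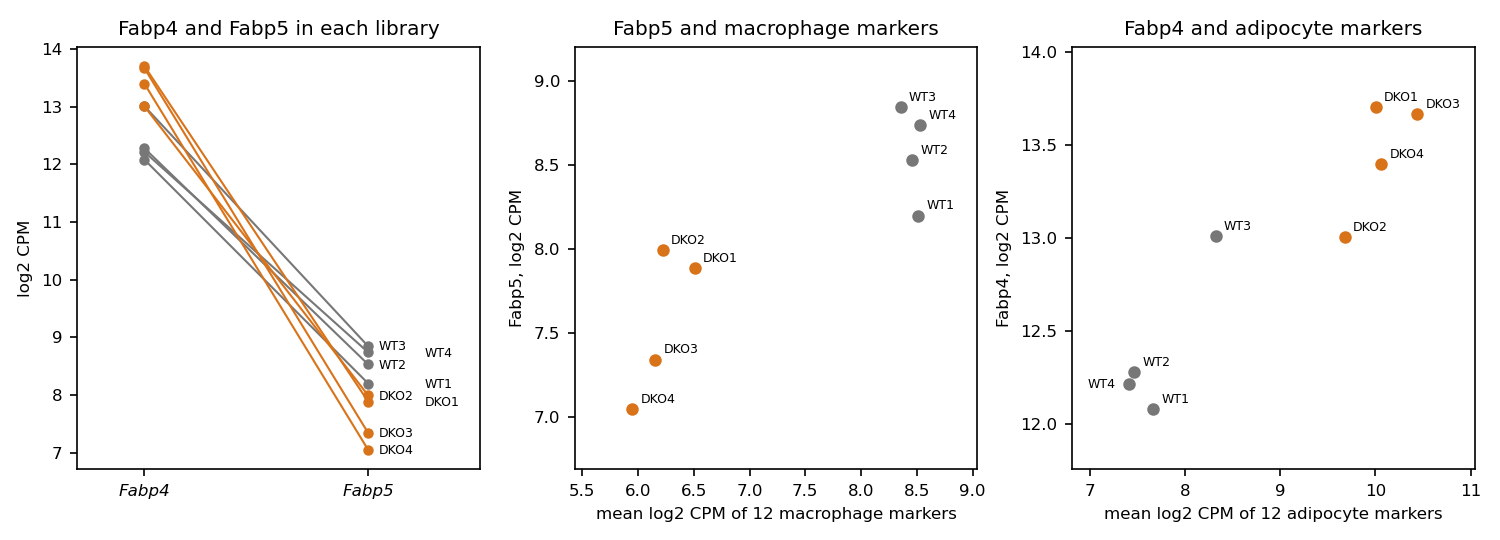
Left, Fabp4 and Fabp5 of each library joined by a line (y axis, log2 CPM); middle, Fabp5 against the mean of 12 macrophage markers; right, Fabp4 against the mean of 12 adipocyte markers (both axes log2 CPM; grey, 4 WT libraries; orange, 4 knockout libraries). The knockout lines are steeper, from about 13.01 to 13.70 down to 7.05 to 7.99, and in the right panel WT replicate 3 is the WT library with the highest value on both axes.

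Within the knockout, the 4 libraries do not rank alike for both genes. Knockout replicate 2 had the lowest Fabp4 and the highest Fabp5 of its group, and so the narrowest gap between them. In WT, replicate 3 had the highest value of both. The distance between Cd36 and Fabp4 within a library, in log2 CPM not scaled to length, also differed between the groups. Log2 Cd36 minus log2 Fabp4 was -0.09 to 0.56 in WT and -1.49 to -1.08 in the knockout, with no overlap, a contrast chosen after its values were seen and not tested. Together this pair took 1.06% to 1.60% of all reads in WT and 1.21% to 1.88% in the knockout, ranges that overlap.

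The genes whose pattern over the 8 libraries was most like that of Fabp4 or Fabp5 were taken from the 5612 genes that averaged 5 log2 CPM or more, by the root-mean-square difference of log2 values centred on each gene's mean. For Fabp4 they were Ptprd (0.109), Rasa2 (0.136), Enpep (0.137), Sdpr (0.141) and Olfml1 (0.144). For Fabp5 they were Serpinb9 (0.125), Prkx (0.150), Thy1 (0.161), Plxna1 (0.175) and Lox (0.186). None of the 12 macrophage markers was among the 5 nearest to Fabp5, and none of the 12 adipocyte markers among the 5 nearest to Fabp4. These distances describe 8 libraries and include the size of the difference between the groups, since values were centred but not scaled. A marker with a much larger or smaller difference could thus not come near. The median difference was -2.32 for the macrophage markers, beside -1.01 for Fabp5, and 1.95 for the adipocyte markers, beside 1.05 for Fabp4. Fcgr1 averaged below 5 log2 CPM and was not compared. Some markers had differences nearer in size, namely Dgat2 (0.93) and Cidec (1.31) to Fabp4 and Cd14 (-1.37) to Fabp5, and these were absent too. How far size set the absence of the markers was not tested, and their absence says little about likeness of pattern.

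Acsl1 encodes the main long-chain acyl-CoA synthetase of adipocytes. It was at 9.99, 9.85, 10.44 and 9.70 log2 CPM in WT and at 10.30, 10.19, 10.56 and 10.39 in the knockout. WT replicate 3 lay within the knockout range and the other WT libraries lay below it. The difference was 0.37 ± 0.19 (limma adjusted p = 0.150, 95% interval -0.06 to 0.79), with 0.26 and 0.53 within the ribosomal RNA classes. Without WT replicate 3 it was 0.51 with a limma adjusted p of 0.0432.

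Acsl4 encodes the synthetase that prefers arachidonic acid and related polyunsaturated acids. It was at 5.77, 6.53, 6.25 and 6.14 log2 CPM in WT and at 5.51, 6.54, 5.03 and 5.73 in the knockout. Knockout replicate 2 was as high as the highest WT library, while the other 3 knockout libraries lay below all WT libraries. The difference was -0.47 ± 0.30 (limma adjusted p = 0.233, 95% interval -1.14 to 0.20), with -0.54 and -0.77 within the ribosomal RNA classes. Knockout replicate 2 and WT replicate 2, the highest 2 libraries for Acsl4, were also the highest 2 in epididymis marker reads. They were also the deepest libraries of their groups (76838584 and 15410736 reads), so epididymis reads and depth cannot be told apart in them. Knockout replicate 4, with 1.25% epididymis reads, had Acsl4 at 5.73, below every WT library. The part of epididymis tissue or depth in the Acsl4 values was not tested. Without the 3 libraries with over 1% of such reads the difference was -0.78 (limma adjusted p = 0.0226), and without knockout replicate 2 alone it was -0.75 (limma adjusted p = 0.0261).

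Acsl5, a long-chain synthetase of mitochondria and endoplasmic reticulum, fell, with the smallest limma SE of the 10 genes. It was at 6.88, 6.94, 6.95 and 7.09 log2 CPM in WT and at 6.55, 6.50, 6.55 and 6.52 in the knockout. The 4 knockout libraries lay close together despite their depths, and all lay below WT. The mean went from 6.96 ± 0.09 to 6.53 ± 0.02 (SD, n = 4), a difference of -0.43 ± 0.08 or 1.35-fold (limma adjusted p = 0.00342, 95% interval -0.62 to -0.25). Within the ribosomal RNA classes it was -0.42 and -0.42. Of the 19 alternatives, only the removal of the 3 libraries with epididymis reads, which leaves 3 WT and 2 knockout libraries, took the call away (-0.42, limma adjusted p = 0.0646). Of the 75-base stretches of its transcript 3.62% are shared with Zdhhc6 on the opposite strand (0.20 ± 0.13, limma adjusted p = 0.256). The distance from Acsl5 to Acsl1 was larger in the knockout: log2 Acsl1 minus log2 Acsl5 was 2.61 to 3.49 in WT and 3.69 to 4.01 in the knockout, a contrast chosen after its values were seen and not tested.

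Acsm3 belongs to the medium-chain acyl-CoA synthetases of mitochondria, which activate shorter acids. It was all but unread in WT, with 1, 10, 1 and 4 reads, and held 32, 425, 1861 and 1369 reads in the knockout. In log2 CPM the WT libraries were at -1.44, -0.55, -2.18 and -0.38 and the knockout libraries at 3.12, 2.47, 5.68 and 6.07. All knockout libraries lay above all WT libraries, and knockout replicates 3 and 4 lay well above replicates 1 and 2. The same 2 libraries held the most red blood cell reads (0.407% and 1.20%). They also held the most adipocyte (2.60% and 2.09%), endothelial (0.137% and 0.107%) and mesothelial (lining cell; 0.0271% and 0.0348%) marker reads. The part of these cell types in the Acsm3 values was not tested. The rise was 5.48 ± 0.84 (limma adjusted p = 0.0011, 95% interval 3.59 to 7.37), and it passed in all 18 alternatives, at 3.87 to 6.10. With so few WT reads the size depends on the 0.5 read that the log2 values add to each count. The groups held 16 and 3687 reads in all, and scaled to the pooled library totals these differed 54.0-fold. By ribosomal RNA class the rise was 4.46 and 5.29. Of the 75-base stretches of the transcript 30.8% are shared with Eri2 on the opposite strand, which was at 3.40 and 3.43 log2 CPM in the groups (0.03 ± 0.28, limma adjusted p = 0.941).

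Levels can be compared between genes only per length, here as mean log2 CPM per kilobase of the longest annotated coding transcript. In WT the order was Fabp4 (12.55), Cd36 (10.98), Fabp5 (8.60), Acsl1 (8.03), Slc27a1 (6.54), Acsl5 (4.88), Acsl4 (3.77), Slc27a4 (3.30), Fabp3 (2.26) and Acsm3 (-2.86). Of these neighbours, the ranges of Fabp5 and Acsl1 and those of Acsl4 and Slc27a4 overlapped. In the knockout it was Fabp4 (13.60), Cd36 (10.39), Acsl1 (8.40), Fabp5 (7.58), Slc27a1 (7.04), Acsl5 (4.44), Slc27a4 (3.70), Acsl4 (3.30), Acsm3 (2.62) and Fabp3 (0.77). There the ranges of Fabp5 and Slc27a1 overlapped, as did those of all neighbours from Slc27a4 down. Fabp5 stood above Acsl1 in all 4 WT libraries and below it in all 4 knockout libraries, and Acsm3 left the last place.

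The rest of the pathway was read from 4 lists of related genes. Of 13 other uptake genes tested, 7 rose, 1 fell and 5 did not pass, beside 22.7% higher and 16.1% lower among all tested genes. The median difference was 0.56 beside 0.18 for all tested genes. The smallest p among them was that of Gpihbp1, which anchors lipoprotein lipase to capillaries and went from 5.38 ± 0.26 to 6.67 ± 0.21 log2 CPM (SD, n = 4; 1.28 ± 0.16, limma adjusted p = 0.000349). Cav1, the caveolin of the adipocyte surface, rose by 1.15 ± 0.22, from 10.17 to 11.32 log2 CPM. Slc27a6, encoding FATP6, fell by 2.42 ± 0.44, from 2.23 to -0.19 log2 CPM (145 WT and 126 knockout reads, not scaled to depth). Lpl, the lipase itself, was at 13.04 in WT and 12.96 in the knockout (-0.08 ± 0.33, limma adjusted p = 0.859, 95% interval -0.83 to 0.67). The anchor thus rose, as did the endothelial markers above, while the interval of the lipase lay on both sides of 0.

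Of 14 other genes of intracellular binding, 9 passed the filter, of which 4 rose, 2 fell and 3 did not pass (median 0.30), beside the 22.7% higher and 16.1% lower of all tested genes. Acbd4, which binds acyl-CoA, rose by 1.25 ± 0.21, and Scp2, the sterol carrier protein, rose by 0.81 ± 0.18. Fabp7, the brain form of the FABP family, went from 2.92 to -1.21 log2 CPM (-4.13 ± 0.65, limma adjusted p = 0.00132) on 245 WT and 108 knockout reads. Fabp7 and Fabp5 were the FABP genes that fell.

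Of 11 other acyl-CoA synthetase genes, 9 passed the filter, of which 5 rose, none fell and 4 did not pass (median 1.15), beside the same shares of all tested genes. Acss3, a short-chain synthetase of mitochondria, rose by 2.21 ± 0.26 and Aacs, which activates the ketone body acetoacetate, rose by 2.11 ± 0.23, from 5.38 to 7.49 log2 CPM. Acsm5, a relative of Acsm3, rose by 3.23 ± 0.42, from 0.08 to 3.31 log2 CPM (33 WT and 1288 knockout reads, not scaled to depth). Both tested ACSM genes thus rose, whereas of the ACSL genes tested (Acsl1, Acsl3, Acsl4 and Acsl5) only Acsl5 passed, and it fell.

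The thioesterases reverse activation by splitting acyl-CoA. Of 10 tested, none rose and 2 fell, with a median of 0.17. The share that fell is near the 16.1% of all tested genes. Acot11 fell by 1.11 ± 0.18, from 3.99 to 2.88 log2 CPM, and Acot7 by 0.65 ± 0.16. Acot2, a mitochondrial form, had a difference of 1.17 ± 0.41 with a limma adjusted p of 0.0505 and did not pass.

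**Figure D4:**
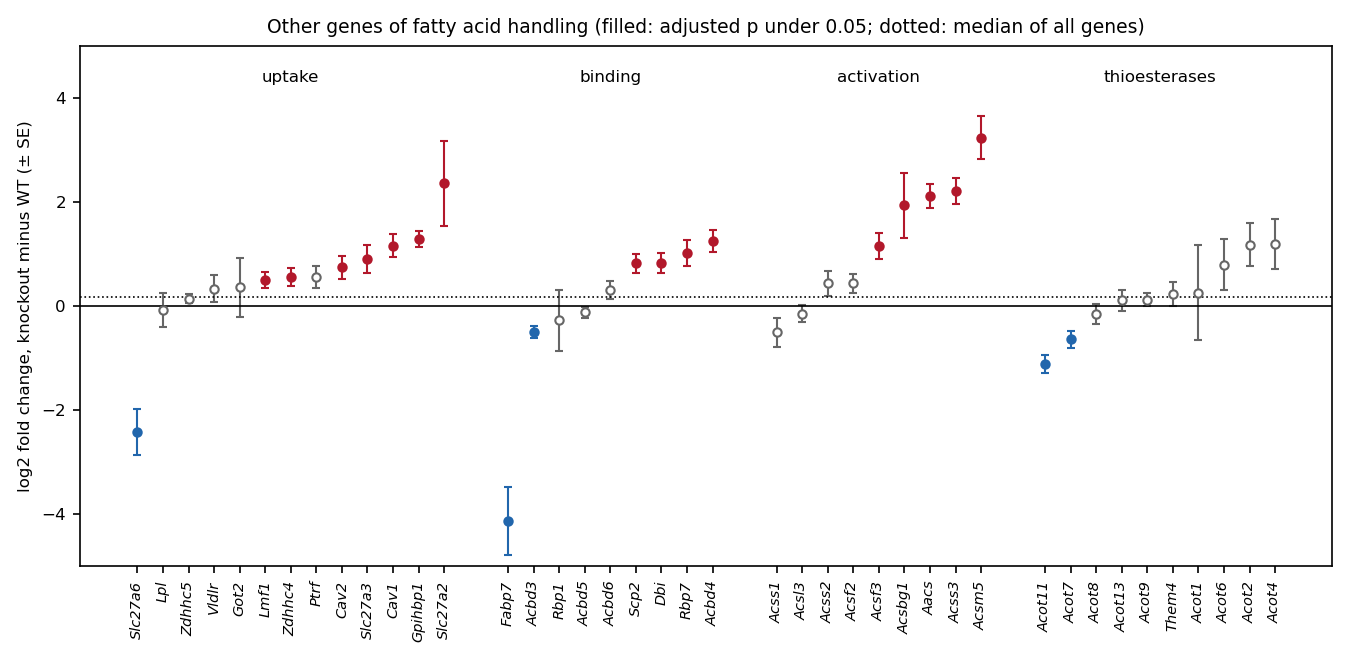
Difference of each tested gene in 4 related lists (y axis, log2 fold change, knockout minus WT, with the SE from limma; genes on the x axis ordered by size within a list; filled points passed the test, red higher and blue lower; the dotted line is the median of all tested genes). Of the activation genes 5 of 9 passed as higher, beside 22.7% of all tested genes, and of the thioesterases 2 of 10 passed as lower, beside 16.1%; the lists were not tested against each other.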

How the data were processed

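Polyadenylated RNA was read as single 75-base ends from a stranded TruSeq library, per the labels' protocols. The submitters' processing notes name Trimmomatic, TopHat2, featureCounts, limma and the build mm9; their versions and the strand setting are not stated there. The authors deposited log2 CPM values from voom, which add 0.5 read to each count, for 16505 symbols. Whole reads were recovered from them (100% of values within 0.01 read) and gave the library totals.

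The 8 columns were matched to samples by title. limma 3.58.1 in R 4.3.3 (lmFit, eBayes with a mean-variance trend, group as the only term) was fitted to the 13797 genes that averaged 0 log2 CPM or more, two-sided, with Benjamini-Hochberg adjustment over all of them. The fit was tested on simulated data. Fabp4 minus Fabp5 was tested by exact permutation. The members and gene lists were chosen with earlier results of these data known. Genes named were the 10 members and the 5 most like Fabp4 and Fabp5. From each list of other pathway, adipocyte and macrophage genes the 3 with the smallest p were named. Lpl, Mertk, Lep, Fcgr1, Acsl3, Acta1, Actn3, Pvalb and the genes that share sequence with members were added after their values were seen. So were Ppargc1a, Dio2, Otop1, Dgat2, Cidec and Cd14. Of the uptake list, Ptrf is the older symbol of Cavin1. Lengths, UTRs and shared stretches came from GENCODE M21 (GRCm38), another build than mm9. Alternatives were log2(CPM + 1), a filter at 2 or none, quantile normalization, median centring, a fit with no variance trend, voom on whole reads with median-ratio size factors, thinned reads, a replicate block, a ribosomal RNA class covariate, removal of the 3 libraries with over 1% epididymis reads and removal of each library.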

Additional observations from a re-analysis of the deposited data

How the results depend on the processing

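No difference of the 10 genes turned its direction in any alternative fit; within the libraries over 1% ribosomal RNA, which is a plain mean difference, Slc27a4 had the opposite sign (-0.12 against 0.40). The count of members that rose was 2 and became 1, through the loss of Fabp4, with log2(CPM + 1), no filter, median centring, quantile normalization, the replicate block and the removal of the 3 libraries with epididymis reads. It also became 1 with the filter at 2, under which Fabp3 and Acsm3 were not tested. Leaving out 1 library gave 1 to 3 (1 without WT replicate 1, 2 or 4 or knockout replicate 3). The count that fell was 2 and became 4 with voom on whole reads, which added Cd36 and Fabp3. It became 3 with log2(CPM + 1), median centring, quantile normalization, no variance trend, thinned reads, the ribosomal RNA covariate and the removal of the epididymis libraries, and leaving out 1 library gave 2 to 3. Genes called in all ranged from 3824 to 6372 over the alternatives. The share of higher genes among them was 58.6%, against 48.2% with quantile normalization and 44.9% with voom on whole reads. Fabp4 minus Fabp5 was 2.06 with a replicate block as well, where the exact p was 0.125, the smallest that 4 pairs can give. Leaving out 1 library gave 1.90 to 2.35, and without WT replicate 4 (1.95) the exact p was 0.0571. Replicate numbers did not pair the samples throughout (correlations of the deviations 0.36, 0.79, 0.24 and -0.36 for numbers 1 to 4). Only for number 2 were the WT and knockout libraries each other's best match, and both held over 1% epididymis reads. The block changed no other call of a member than that of Fabp4 (limma adjusted p = 0.0737). Depth limits Fabp3 and Acsm3, since 1 read is worth 0.268 CPM in the shallowest library.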
